A study of Homo sapiens with 4 samples.

Results

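The expression of 9 genes of pericellular proteolysis and of the start of blood clotting was examined in LoVo cells, out of 58825 Ensembl genes in the deposited counts. The 9 genes were taken by symbol from GENCODE version 29: PLAU, PLAT, PLAUR and SERPINE2 of the plasminogen activator system, F3 and TFPI of the tissue factor pathway, and the receptors F2RL1, PROCR and THBD. LoVo is a line established from a colorectal adenocarcinoma, in which the MET receptor stays uncleaved and is active without its ligand. MET+ cells, 2 libraries, are the GFP control cells with a wild-type genotype, and MET-KO cells, 2 libraries, are LoVo cells in which MET was disrupted with CRISPR-Cas9. Per the study's methods, single knock-out clones were picked after puromycin selection and chosen by western blot. Whether the MET-KO replicates come from 1 clone or from several is not given in the sources used here. Both groups grew in DMEM with 10% serum and penicillin-streptomycin, without any further agent. The comparison asks how these genes differ between the MET+ and the MET-KO cells.

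Plasmin, the protease that dissolves fibrin and opens the matrix around cells, is made from plasminogen by urokinase (uPA, gene PLAU) or by tissue plasminogen activator (tPA, gene PLAT). Urokinase works at the cell surface on its receptor uPAR (PLAUR), and serpins such as protease nexin 1 (SERPINE2) trap both activators. Tissue factor (F3) is the membrane receptor that starts clotting with factor VIIa and is held back by TFPI, while PAR2 (F2RL1), a receptor that proteases switch on by cutting its own N terminus, relays the signal of the tissue factor complex into the cell. Thrombomodulin (THBD) and the endothelial protein C receptor (PROCR) turn thrombin and protein C to the opposite, anticoagulant task.

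The libraries held 8429142 to 10286552 counts. MET itself, the edited gene, had 2794 and 3272 counts in the MET+ and 861 and 965 counts in the MET-KO libraries (log2 fold change -1.96, standard error 0.09, adjusted p = 1.49e-18, edgeR). On fixed marker lists, 10 of 12 colon epithelium genes were above 3 counts in a MET+ library and 7 of 12 in a MET-KO library, with summed levels of 9683 to 9716 and 7337 to 8321 CPM, and CDX1 at 0 in every library. CPM are counts divided by library size in units of 1e6 reads, after TMM scaling for composition. KRT18 made up most of these sums, with means of 6020 and 4879 CPM. CDH17, a cadherin of intestinal epithelium, had 212 and 229 counts in MET+ and 0 and 0 in MET-KO libraries. GPA33 had 35 and 39 against 0 and 0, LGALS4 89 and 107 against 1 and 1, and VIL1 43 and 58 against 3 and 3. Only KRT20 (0 and 0 against 27 and 28 counts) and CDX2 (525 and 648 against 1477 and 1338) were called higher on this list (edgeR, adjusted p under 0.05). Of 9 Y chromosome genes, 0 had a count in MET+ and 8 had counts in MET-KO libraries. Fitted log2 fold changes of those 8 lay between 8.96 for ZFY and 15.2 for RPS4Y1 (adjusted p = 3.80e-10 and 2.45e-29, edgeR). The labels do not describe this difference between the groups. For the 9 genes, an effect of MET cannot be told apart here from such differences between the sampled populations. The p-values measure only the spread between these libraries. Of the 8 listed markers each of endothelium, of macrophages and blood, and of fibroblasts, the summed levels were 9.06 to 9.24, 4.95 to 8.62 and 1.64 to 2.18 CPM in MET+ and 3.22 to 4.41, 0.645 to 0.686 and 3.63 to 4.33 CPM in MET-KO libraries. Above 3 counts were 4, 1 and 2 of these markers in a MET+ library and 1, 0 and 2 in a MET-KO library. ESAM (54 and 73 counts against 42 and 33) and LYZ (38 and 79 against 3 and 1) were called lower in MET-KO cells. COL3A1 (4 and 5 against 24 and 26) was called higher (edgeR, adjusted p under 0.05). CDH5, KDR, TEK, CLDN5, PTPRC, CSF1R, COL1A2, DCN and FAP were at 0 in every library.

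Of the 9 genes, 8 were expressed enough to be tested. At an adjusted p under 0.05 from edgeR, 3 were higher in MET-KO cells (PLAT, PROCR and TFPI), 4 were lower (F3, SERPINE2, F2RL1 and PLAUR), and PLAU did not pass. Among all 13801 tested genes 54.1% passed, 27.2% higher and 26.9% lower, so that most genes of these libraries differed. The even split depended on the scaling, since with library totals alone 4361 genes were higher and 3000 lower, against 3755 and 3712. The groups did not overlap for 7 of the 8 genes, against 75.6% of all tested genes. The 8 genes were all still tested when at least 10 counts were required in every library. The median log2 fold change of the 8 was -0.58, between -3.79 for F3 and 8.55 for PLAT, and that of all tested genes was 0.01. In the plot of expression by library, the distance between groups was widest for PLAT, F3 and SERPINE2, and PLAU alone had groups that overlapped.

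**Figure D1:**
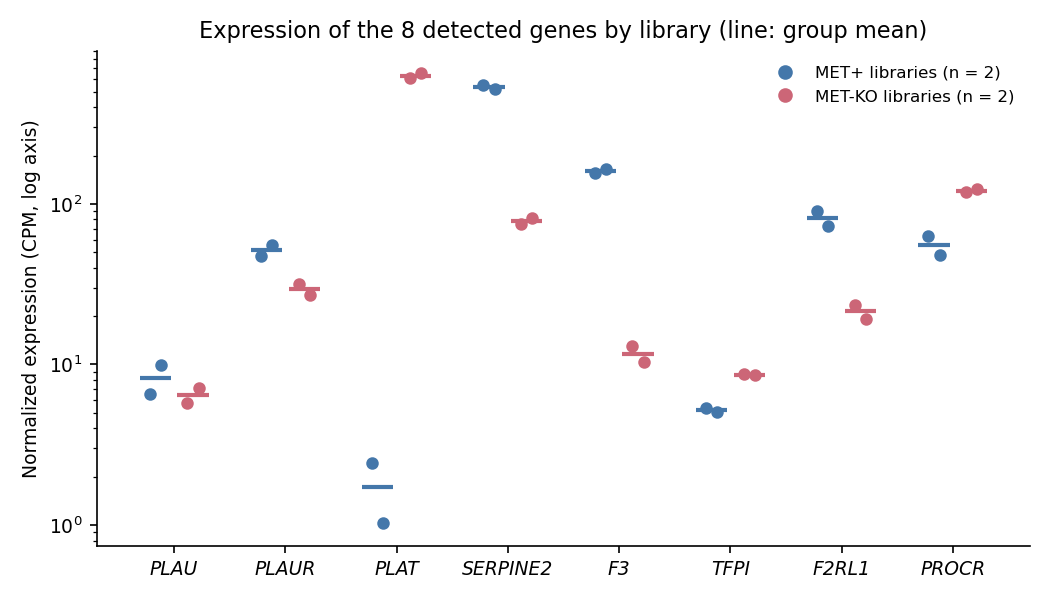
Normalized expression in CPM (log axis) of the 8 genes with counts, with a point for each library (MET+ blue, MET-KO red, 2 each) and a line at the group mean. PLAT stands at 1.03 to 2.42 CPM in MET+ and 609 to 652 CPM in MET-KO libraries, F3 and SERPINE2 fall, and the PLAU points of the groups overlap.

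Of the plasminogen activators, PLAT passed the test and PLAU did not. PLAT (ENSG00000104368, GRCh38 chromosome 8, 42175233 to 42207724) had 20 and 10 counts in MET+ cells, against 6215 and 7078 in MET-KO cells. Its level was 2.42 and 1.03 CPM in MET+ and 609 and 652 CPM in MET-KO cells. PLAT was thus near the bottom of the measured range in MET+ and strongly expressed in MET-KO cells. The means were 1.72 ± 0.983 and 631 ± 30.0 CPM (SD, n = 2 each). PLAT was 375-fold higher (95% interval 295 to 478), a log2 fold change of 8.55 with a standard error of 0.17 (adjusted p = 2.80e-29, edgeR). From the highest log2 fold change down, it ranked 98 among all tested genes. In bulk RNA, fewer cells of a kind and less RNA in each cell cannot be told apart. The size rests on the small MET+ counts: without MET+ replicate 1 the fold was 608 and without MET+ replicate 2 it was 258.

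The genes on either side of PLAT also rose, but far less. AP3M2, 3.56 kb away, had a log2 fold change of 0.88 (adjusted p = 1.14e-07, edgeR), IKBKB, 63.6 kb away, 1.39 (7.89e-10), and POLB, 131 kb away, 1.52 (6.24e-13). Within 5 Mb of PLAT, 17 of 39 tested genes were called higher and 3 lower, and their median log2 fold change was 0.25. Only AC069120.1 in that window, with 0 counts in both MET+ libraries and 53 and 68 counts in the MET-KO ones, had a fitted value at or beyond that of PLAT. The 465 other tested genes of chromosome 8 had a median of 0.09. The genes whose 4 library values came closest to the pattern of PLAT were HLA-DRA and HLA-DPA1, which encode alpha chains of the MHC class II molecules that present antigen, and IL1B, which encodes a cytokine. HLA-DRA had 2 and 0 counts in MET+ and 1208 and 1318 in MET-KO libraries, at a distance of 0.186 over 4 centred log2 CPM values. IL1B had 3 and 0 counts against 1257 and 1437 (distance 0.286), and HLA-DPA1 1 and 0 against 965 and 1115 (distance 0.323). A prior count of 2 was added before these logarithms, which shrinks differences among counts near 0. Fitted log2 fold changes were 9.92 for HLA-DRA, 9.48 for IL1B and 10.5 for HLA-DPA1, against 8.55 for PLAT. Of the 8 listed markers of blood cells and macrophages, LYZ had 38 and 79 counts in MET+ and 3 and 1 in MET-KO libraries. PTPRC and CSF1R were at 0 in every library, and the others had at most 3 counts in any. The source of the shared pattern was not tested.

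For urokinase no difference was called. PLAU (ENSG00000122861, chromosome 10, 73909177 to 73917497) had 54 and 96 counts in MET+ cells, against 59 and 78 in MET-KO cells, or 6.53 and 9.85 against 5.78 and 7.18 CPM. The groups overlapped, and the higher MET+ library set most of the difference between means. Its log2 fold change was -0.35 (95% interval -0.87 to 0.17, adjusted p = 0.263, edgeR), so that a fall to 0.549 or a rise to 1.13 of the MET+ level both lie within the interval. Without MET+ replicate 1 the value was -0.60 with an adjusted p of 0.0486 from the same edgeR test. The gene C10orf55 lies over PLAU on the other strand and had at most 1 count in any library.

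The urokinase receptor fell. PLAUR (ENSG00000011422, chromosome 19, 43646095 to 43670547) had 394 and 537 counts in MET+ cells, against 324 and 295 in MET-KO cells, which is 47.6 and 55.1 against 31.8 and 27.2 CPM. Both MET-KO libraries lay below both MET+ libraries. PLAUR was 1.75-fold lower (95% interval 1.46 to 2.09), a log2 fold change of -0.81 with a standard error of 0.13 (adjusted p = 1.66e-06, edgeR). The 872 other tested genes of chromosome 19 had a median of 0.01.

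A serpin that traps both activators fell as well. SERPINE2 (ENSG00000135919, chromosome 2, 223975112 to 224039319), which encodes protease nexin 1, an inhibitor of thrombin, urokinase and tPA, had 4551 and 5087 counts in MET+ cells, against 763 and 886 in MET-KO cells. Its level was 550 and 522 CPM against 74.8 and 81.6 CPM, with means of 536 ± 19.7 and 78.2 ± 4.79 CPM (SD, n = 2 each). The replicates were close and the groups far apart. SERPINE2 was 6.85-fold lower (95% interval 5.97 to 7.87, log2 fold change -2.78, standard error 0.10, adjusted p = 2.02e-22, edgeR). MRPL44 and CUL3, the nearest tested genes on either side, had log2 fold changes of -0.25 (adjusted p = 0.0523) and 0.19 (0.136) and did not pass.

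Tissue factor showed the deepest fall of the 9 genes. F3 (ENSG00000117525, chromosome 1, 94529225 to 94541800) had 1282 and 1611 counts in MET+ cells, against 132 and 112 in MET-KO cells. The level was 155 and 165 CPM in MET+ and 12.9 and 10.3 CPM in MET-KO cells, with means of 160 ± 7.38 and 11.6 ± 1.86 CPM (SD, n = 2 each). F3 was 13.8-fold lower (95% interval 11.6 to 16.5), a log2 fold change of -3.79 with a standard error of 0.13 (adjusted p = 2.91e-23, edgeR), and ranked 251 from the lowest log2 fold change up. Of the 36 other tested genes within 5 Mb, 2 were at or beyond F3, and both lie beside it. They were ARHGAP29, 254 kb away, which fell from a mean of 163 to 6.64 CPM (log2 fold change -4.61, adjusted p = 7.31e-24, edgeR), and SLC44A3, 279 kb away on the other side, which fell from 22.8 to 1.37 CPM (-4.04, 5.27e-15). ABCD3, 10.6 kb from F3, had a log2 fold change of -0.17 (adjusted p = 0.3297), and CNN3, 355 kb away, rose by 1.999 (7.58e-16), so that the low values did not form an unbroken run. The median of the window was -0.03.

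The inhibitor of the tissue factor complex moved the other way. TFPI (ENSG00000003436, chromosome 2, 187464230 to 187565760) had 44 and 49 counts in MET+ cells, against 89 and 93 in MET-KO cells, or 5.32 and 5.03 against 8.73 and 8.56 CPM. Both MET-KO libraries were higher, at few counts. TFPI was 1.67-fold higher (95% interval 1.17 to 2.39, log2 fold change 0.74, standard error 0.25, adjusted p = 0.0139, edgeR). This call was the least stable of the 7. It was lost with DESeq2 (adjusted p = 0.0776), after thinning to the smallest library (0.0587), and without MET-KO replicate 1 (0.0743) or replicate 2 (0.0602), with values between 0.60 and 0.84 over the alternatives. The antisense gene AC007319.1, which covers most of TFPI, had 0 counts in every library.

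**Figure D2:**
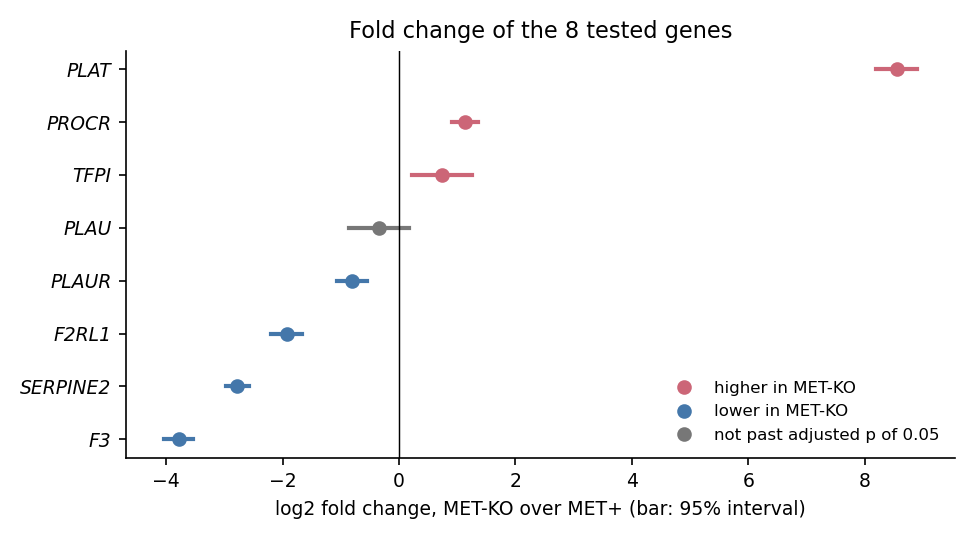
The log2 fold change of MET-KO over MET+ cells for the 8 tested genes, with 95% intervals from the edgeR fit over 2 libraries a group (red higher, blue lower, grey not past an adjusted p of 0.05). PLAT lies at 8.55, F3, SERPINE2, F2RL1 and PLAUR lie between -3.79 and -0.81, and only the interval of PLAU crosses 0.

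PAR2 fell together with tissue factor. F2RL1 (ENSG00000164251, chromosome 5, 76818933 to 76835315) had 743 and 714 counts in MET+ cells, against 240 and 209 in MET-KO cells, which is 89.8 and 73.3 against 23.5 and 19.2 CPM. The groups were well separated. F2RL1 was 3.81-fold lower (95% interval 3.18 to 4.57, log2 fold change -1.93, standard error 0.13, adjusted p = 9.32e-15, edgeR). Much of chromosome 5 was lower as well, with a median of -0.43 over 616 other tested genes and of -0.50 over the 54 within 5 Mb, of which 29 were called lower and 12 higher. F2RL1 lay below its chromosome by a difference of -1.50 in log2 fold change. F2R, the gene of the thrombin receptor PAR1, lies 83.2 kb from F2RL1 and rose from 22.1 to 29.1 CPM (0.39 in log2 fold change, adjusted p = 0.0206, edgeR), a call lost with DESeq2 (0.097) and without MET+ replicate 1 (0.134), MET-KO replicate 1 (0.103) or MET-KO replicate 2 (0.0546). PAR3 (F2RL2) and PAR4 (F2RL3) had 0 counts in every library.

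The receptors of the protein C pathway were unlike each other. PROCR (ENSG00000101000, chromosome 20, 35172073 to 35216240) had 519 and 471 counts in MET+ cells, against 1211 and 1338 in MET-KO cells, or 62.7 and 48.3 against 119 and 123 CPM. Both MET-KO libraries were higher, with means of 55.5 ± 10.2 and 121 ± 3.16 CPM (SD, n = 2 each). PROCR was 2.19-fold higher (95% interval 1.87 to 2.55, log2 fold change 1.13, standard error 0.11, adjusted p = 1.44e-10, edgeR). Over 14496 bases PROCR shares its position with MMP24OS on the other strand, which had 92 and 120 counts in MET+ and 250 and 265 in MET-KO libraries. The strand setting of the counting is not given in the sources used here, and the part of such shared reads in the PROCR value was not tested. THBD (ENSG00000178726, chromosome 20, 23045633 to 23049741) had 0 counts in all 4 libraries, so that, at 3 counts, a level of at most 0.276 to 0.363 CPM remains possible from counting error alone. It was not detectable at this depth in either group.

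**Figure D3:**
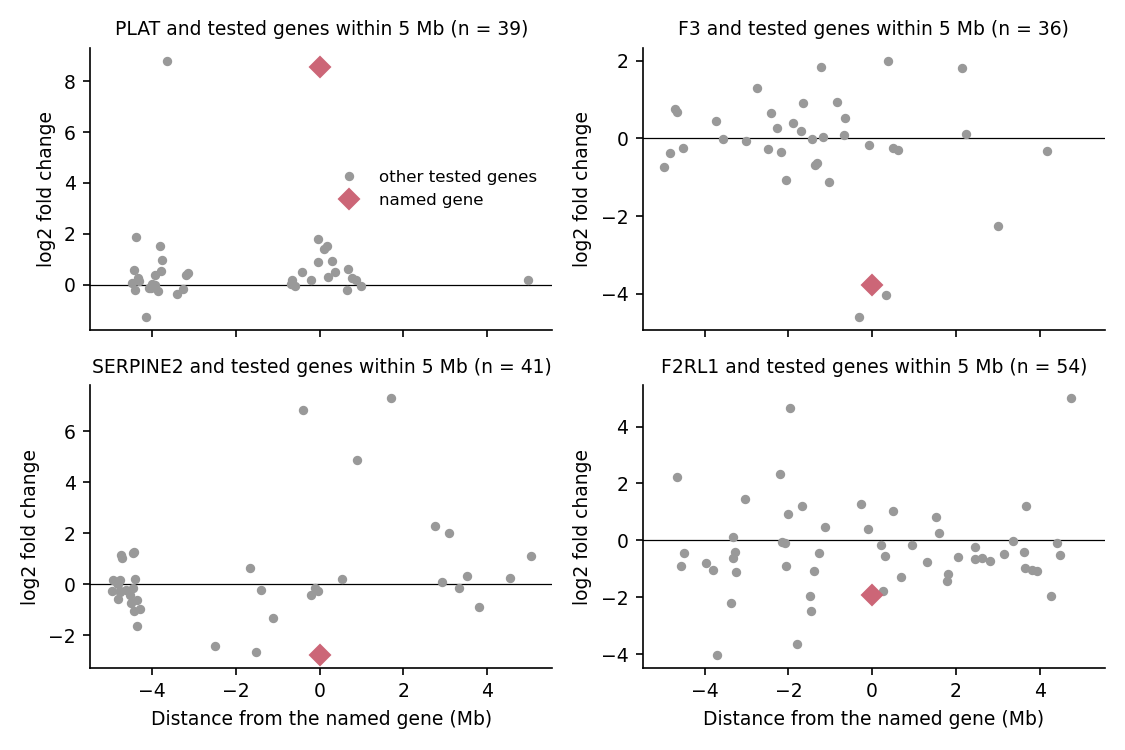
The log2 fold change of tested genes (grey points) against their distance in Mb from PLAT, F3, SERPINE2 or F2RL1 (red diamond), for all tested genes within 5 Mb. PLAT stands above its neighbours, which have a median of 0.25, F3 stands with ARHGAP29 and SLC44A3 at its sides, and the surroundings of F2RL1 have a median of -0.50.

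The promoters of the 4 genes that fell are shown because F3, SERPINE2, F2RL1 and PLAUR changed in the same direction. The sequences are from RefSeq on GRCh38.p14, 250 bases before to 50 bases after a transcript start, read 5′ to 3′ on the gene's own strand, for chr1:94541710-94542009 (F3, minus strand), chr19:43670120-43670419 (PLAUR, minus strand), chr2:224038591-224038890 (SERPINE2, minus strand, the farther upstream of its starts) and chr5:76818780-76819079 (F2RL1, plus strand). Capitals mark matches on either strand to any of 5 motifs, where neighbouring matches can run together and an EGR1 match can overlap an SP1 match. The AP-1 motif, bound by Fos and Jun proteins, was searched as TGANTCA. The motif of the TEAD factors, partners of YAP, was searched as GGAATG. For SP1, a factor that binds many promoters rich in G and C, the letters were GGGCGG. For EGR1, an early growth response factor, the letters were GCGNGGGCG. The TATA box, which places the start of transcription in some promoters, was searched as TATAAA.
F3: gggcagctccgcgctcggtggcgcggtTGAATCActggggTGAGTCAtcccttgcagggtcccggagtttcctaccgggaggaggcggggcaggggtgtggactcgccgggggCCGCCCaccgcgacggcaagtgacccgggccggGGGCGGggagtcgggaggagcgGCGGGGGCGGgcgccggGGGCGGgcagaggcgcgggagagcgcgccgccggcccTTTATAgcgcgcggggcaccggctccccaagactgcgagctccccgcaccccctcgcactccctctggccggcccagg
PLAUR: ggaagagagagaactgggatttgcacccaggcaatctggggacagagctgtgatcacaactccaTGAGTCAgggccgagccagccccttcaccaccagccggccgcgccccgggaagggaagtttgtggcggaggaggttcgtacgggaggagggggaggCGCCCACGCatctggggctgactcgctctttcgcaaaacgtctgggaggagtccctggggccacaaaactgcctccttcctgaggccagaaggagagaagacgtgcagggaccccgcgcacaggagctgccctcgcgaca
SERPINE2: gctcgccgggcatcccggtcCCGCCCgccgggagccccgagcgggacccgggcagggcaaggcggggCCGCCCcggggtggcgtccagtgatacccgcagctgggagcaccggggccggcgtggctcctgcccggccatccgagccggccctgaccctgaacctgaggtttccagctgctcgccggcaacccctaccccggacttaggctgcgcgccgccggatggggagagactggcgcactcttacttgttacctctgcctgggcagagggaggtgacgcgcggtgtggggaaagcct
F2RL1: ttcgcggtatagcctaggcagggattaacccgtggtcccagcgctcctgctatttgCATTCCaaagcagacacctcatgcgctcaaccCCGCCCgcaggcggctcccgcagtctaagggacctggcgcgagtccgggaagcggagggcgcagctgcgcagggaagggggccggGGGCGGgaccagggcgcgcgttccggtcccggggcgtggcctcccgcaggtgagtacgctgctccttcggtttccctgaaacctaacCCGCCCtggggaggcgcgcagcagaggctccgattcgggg
The F3 window held 2 AP-1 matches, 4 SP1 matches, 1 EGR1 match and a TATA box match. The PLAUR window held 1 AP-1 match and 1 EGR1 match, the SERPINE2 window 2 SP1 matches, and the F2RL1 window 1 TEAD match and 3 SP1 matches. Of all 35116 promoter windows, 7.71% held an AP-1 match, 14% a TEAD match, 45% an SP1 match, 9.43% an EGR1 match and 11.5% a TATA box match. The 4 genes therefore had no motif of the 5 in common. Of the genes that rose, the PROCR window held 2 SP1 matches and a TATA box match, and the TFPI window held none of the 5. Counted from the transcript start, the TATA box match began at -82 in PROCR and at -28 in F3, in both genes on the opposite strand. GC content was 77.3% in the F3 window and 39.3% in that of TFPI. PLAT and THBD were not matched.

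Ratios of 2 genes within a library do not depend on how libraries are scaled, and 5 such ratios of counts were compared. QuantSeq reads come from transcript 3' ends, and the counts were therefore not scaled by gene length. The ratio of F3 to TFPI, the initiator of clotting to its inhibitor, was 29.1 and 32.9 in MET+ and 1.48 and 1.20 in MET-KO libraries, a 23.2-fold drop. F3 to F2RL1 went from 1.73 and 2.26 to 0.550 and 0.536, and the groups did not overlap. PLAU to SERPINE2 went from 0.0119 and 0.0189 to 0.0773 and 0.0880, a rise of 5.51-fold. PLAU to PLAUR was 0.137 and 0.179 in MET+ and 0.182 and 0.264 in MET-KO libraries, and these values nearly touched. With THBD at its limit of 3 counts, THBD to PROCR was at most 0.00637 in any library. With 2 libraries a group, the smallest p that the exact permutation test (two-sided) allows is 0.333. The 4 ratios of genes that both had counts reached that p, and the value adjusted over the 5 was 0.333 as well, while THBD to PROCR is only an upper limit.

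**Figure D4:**
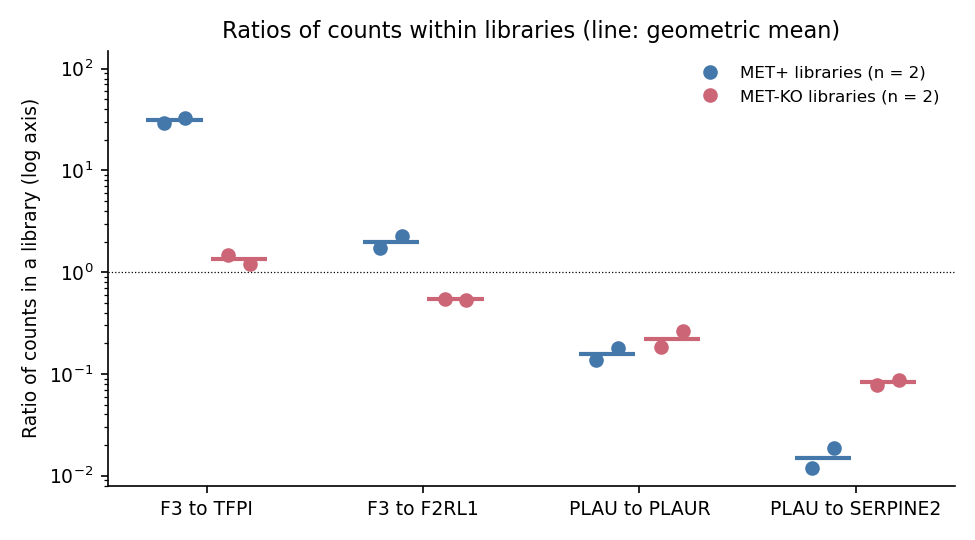
Ratios of counts within each library (log axis) for 4 gene pairs, with a point for each library (MET+ blue, MET-KO red, 2 each) and a line at the geometric mean. F3 to TFPI drops from 29.1 and 32.9 to 1.48 and 1.20, PLAU to SERPINE2 rises, and the dotted line marks equal counts.

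The wider plasminogen activation list held 21 genes, 4 of them described above. Of these 21, 12 were tested, 4 were called higher and 5 lower, and 3 did not pass (median log2 fold change -0.21, against 0.01 over all tested genes). Without the 4 described above, 8 of 17 genes were tested, 3 were called higher and 3 lower, and the median was 0.11. Over all tested genes 27.2% were called higher and 26.9% lower. Plasminogen itself (PLG), SERPINB2, SERPINA5, A2M and CPB2 had 0 counts in every library. SERPINI1, the gene of neuroserpin, an inhibitor of tPA, had 2 and 0 counts in MET+ cells, against 27 and 29 in MET-KO cells and was called higher (adjusted p = 9.20e-06, edgeR). S100A10, a cell surface subunit that binds plasminogen together with annexin A2, fell from 1447 ± 21.6 to 791 ± 30.7 CPM (SD, n = 2 each), or by 0.87 on the log2 scale (adjusted p = 9.40e-10, edgeR). Its partner ANXA2 had 1318 ± 2.86 and 1175 ± 45.7 CPM (SD, n = 2 each) and did not pass, at a log2 fold change of -0.17 (adjusted p = 0.133, edgeR). F12, the gene of the contact factor XII, on chromosome 5, fell from 121 to 53.9 CPM (-1.17, adjusted p = 1.17e-11), and ENO1, a glycolytic enzyme that also binds plasminogen, from 1208 to 1007 CPM (-0.26, 0.0164), a call lost with library totals (0.0854) and without MET+ replicate 1 (0.184) or replicate 2 (0.0686). LRP1, the receptor that clears activator and serpin complexes, rose from 5.83 to 9.66 CPM (0.72, adjusted p = 0.0165), and MRC2, a collagen receptor that pairs with uPAR, from 1.08 to 2.43 CPM (1.183, 0.0436). Without MET-KO replicate 1 the LRP1 value was 0.37 (adjusted p = 0.409) and that of MRC2 0.91 (0.370), both from edgeR, and neither passed with DESeq2 (0.0883 and 0.182) or after thinning (0.0944 and 0.0823). MRC2 was also lost without MET+ replicate 2, at 0.73 (adjusted p = 0.316), without MET-KO replicate 2 (0.102) and with a replicate block (0.0621).

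The coagulation list held 27 genes, of which 9 were tested, 3 called higher and 2 lower, a share of calls near the 54.1% of all tested genes. Besides F3, TFPI and PROCR these were VKORC1, the vitamin K reductase (log2 fold change 0.35, adjusted p = 0.0086), and ANXA5, which binds exposed phosphatidylserine (-0.25, 0.0222). Without F3, TFPI, PROCR and THBD, 6 of 23 genes were tested, with 1 called higher and 1 lower, a smaller share than with them. VKORC1 was lost without MET+ replicate 2 (0.0505) or MET-KO replicate 1 (0.0524), and ANXA5 with DESeq2 (0.0511), with library totals (0.182), with a replicate block (0.0619) and without MET+ replicate 1 (0.170), MET+ replicate 2 (0.0523) or MET-KO replicate 2 (0.0702). F7 had at most 1 count in any library and the prothrombin gene F2 had 0, as did the fibrinogen genes FGA, FGB and FGG and the TFPI relative TFPI2. The count of calls was 3 with DESeq2 and 3 without MET-KO replicate 1, and it was 7 without a filter and 7 when every library had to hold 10 counts, where F8 and PROS1 also passed. The third list held 15 genes, the protease-activated receptors and proteases that cut PAR2, of which 5 were tested and 5 called, 1 higher and 4 lower, against 54.1% of all tested genes called. With so few genes tested, and calls that are lost under other settings, nothing is read from that share. PRSS3, a trypsinogen, fell from 157 to 101 CPM (-0.64 in log2 fold change, adjusted p = 8.06e-07, edgeR), ST14, the membrane protease matriptase, from 107 to 72.0 CPM (-0.57, 1.81e-05) and TMPRSS2, another membrane protease, from 6.14 to 3.32 CPM (-0.89, 0.0158). PRSS1 and PRSS2, close copies of PRSS3, had at most 4 counts in any library, and the PRSS3 value is uncertain as far as reads could be split among the copies. The number of calls on this list was 3 with DESeq2 and 3 without either MET-KO replicate. F2R and TMPRSS2 were the calls lost without either MET-KO library, and each of the 4 libraries left out lost at least 1 of them.

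**Figure D5:**
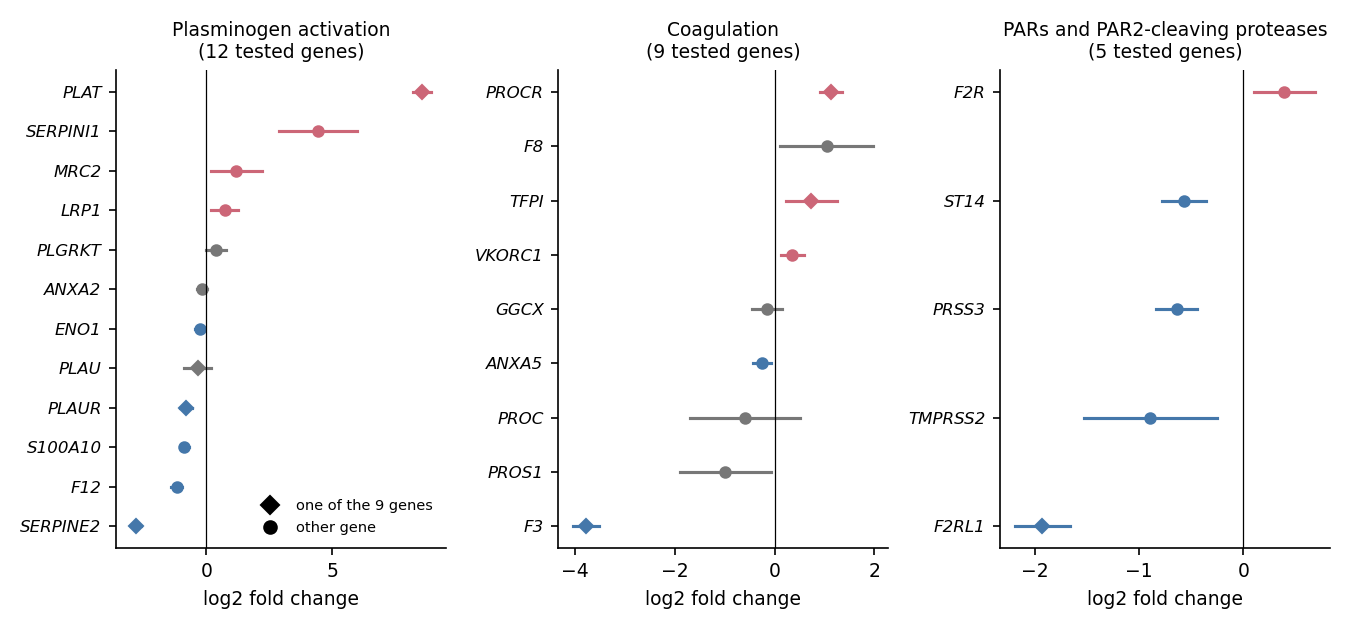
The log2 fold change of MET-KO over MET+ cells with 95% intervals for the tested genes of 3 fixed lists (diamonds, genes among the 9; circles, others; red higher, blue lower, grey not past an adjusted p of 0.05). PLAT at 8.55 and F3 at -3.79 are the outermost genes of the first and second list, and F2R at 0.39 is the only gene above 0 on the third.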

How the data were processed

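RNA of 2 MET+ and 2 MET-KO LoVo cultures was sequenced with the QuantSeq 3' mRNA-Seq kit (FWD), which reads near the poly(A) end. The authors deposited raw counts of reads for each Ensembl gene, a file a sample, without normalization, and 99 spike-in rows that held 0 counts. The submitters' processing notes name cutadapt 1.16, STAR 2.5.4a, featureCounts 1.6.2 and DESeq2 1.18.1 on GRCh38, while the annotation release and strand setting are not given in the sources used here. Names and positions came from GENCODE version 29, which held 58552 of 58825 gene IDs, and promoters from RefSeq.

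Starting from the counts, edgeR 4.0.16 in R 4.3.3 was run with filterByExpr, TMM scaling (factors 0.949 to 1.06), condition as the only term, the quasi-likelihood test and Benjamini-Hochberg adjustment over all 13801 tested genes. Standard errors were taken as the log2 fold change over the root of the F statistic. Depth was 8429142 to 10286552 counts, without molecular identifiers, so limits from 3 counts cover counting error only. The common biological coefficient of variation was 0.0787. Correlations of log2 CPM between replicates were 0.985 and 0.990, against 0.827 to 0.832 between groups.

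The 9 genes and the lists were chosen with earlier results of these data known. Named besides them were up to 6 further called genes of each list with the largest absolute log2 fold change, TFPI2, F2R, LRP1, ANXA2 and S100A10, MET, and the 3 genes nearest to the pattern of PLAT by Euclidean distance of centred log2 CPM. Other genes named at 0 counts, as markers or as neighbours were chosen after their values were seen. The test was checked before use on simulated data in which 200 of 13801 genes were changed. It recovered 86 of 100 genes at a log2 fold change of 1 in size and 96 of 100 at 2, and called 8 genes that were not changed. DESeq2 recovered 71 and 92 of 100 and called 0 unchanged genes. Far fewer genes were changed there than the 54.1% called here, so that data with so many changes were not checked.

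Alternatives were DESeq2 size factors, library totals, the Wald test of DESeq2 1.42.0, testing without a filter or with 10 counts required in every library, a replicate block, thinning to the smallest library, calls only where the log2 fold change was 1 or more in size, 1 added to every count for the ratios, and leaving out each replicate. For the ratios, leaving out replicates was added after seeing the data. 1 planned gene, with the ratios that use it, is not reported here.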

Additional observations from a re-analysis of the deposited data

How the results depend on the processing

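PLAT, PROCR, PLAUR, SERPINE2, F3 and F2RL1 kept their direction and passed an adjusted p of 0.05 under all 11 refits, and PLAU and TFPI kept their direction. With each replicate left out, PLAU lay between -0.598 and -0.014 and passed only without MET+ replicate 1. TFPI lay between 0.692 and 0.782, and did not pass without either MET-KO replicate, with DESeq2's Wald test (0.743) or after thinning (0.604). The cause was not tested. Leaving out a library leaves 1 sample in a group, which is assumed to vary like the others.

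Of the 13801 genes tested, 7467 were called, and 3355 with a log2 fold change of 1 or more in size. That requirement left 5 calls on the plasminogen activation list, 2 on the coagulation list and 1 on the list of protease-activated receptors. DESeq2's Wald test called 5760 genes, and 3 on each of the last 2 lists, which had 3 to 5 and 3 to 4 calls when a replicate was left out. Library totals alone moved the median of all genes from 0.007 to 0.109 and changed no call of the 9 genes.

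The replicate numbers are shared by the groups, but the deviations of same-numbered libraries were not correlated (r = -0.022). That value cannot show whether same-numbered cultures were handled together, and the study states no pairing. With the replicate block 7055 genes were called, and no call among the 9 genes changed, while MRC2 and ANXA5 were lost, which left 8 calls on the plasminogen activation list and 4 on the coagulation list. The 4 ratios of genes that both had counts kept their direction with each replicate left out. Depth limits THBD and the MET+ value of PLAT, which rests on 10 and 20 counts.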

Other observations

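Some genes next to the 9 differed between the groups too, and they were chosen after their values were seen. MMP24, a membrane-type matrix metalloproteinase gene 10.4 kb from PROCR, had 0 counts in both MET+ libraries. It had 355 and 322 counts in the MET-KO libraries (adjusted p = 9.07e-19, edgeR). FOXA2, a transcription factor of gut and liver epithelium and the nearest tested gene before THBD, 460 kb away, fell from 63.6 to 1.181 CPM, a log2 fold change of -5.73 (adjusted p = 1.95e-22, edgeR). ZBED3, 237 kb after F2RL1, fell from 50.5 to 14.7 CPM (-1.77 in log2 fold change, adjusted p = 1.13e-12), and IQGAP2, 111 kb before it, rose from 28.7 to 68.9 CPM (1.27, 9.22e-11). TFPI lies between FAM171B, which rose by 2.13 (adjusted p = 6.04e-12), and GULP1, which rose by 0.79 (3.09e-07).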
